A study of Sus scrofa with 8 samples.

Results

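Retinoic acid transport, synthesis, breakdown and receptor genes were followed through the somites and the myotome of pig embryos. The set named 9 genes, chosen by symbol: STRA6, DHRS3, ALDH1A2, CYP1B1, CRABP1, CRABP2, CYP26A1, RXRG and RARB. The symbols of 8 of the 9 were matched to a row among the 21301 genes of each count matrix, and the level of RARB, a retinoic acid receptor, was not analysed here. Of the 21301 genes, 17802 were found in at least 3 cells, all 8 matched genes among them. Single cells came from somites at E16, E18 and E21 (embryonic days 16, 18 and 21) and from the myotome, the muscle-forming part of the somite, at E28 (day 28). At each stage 1 library was made from Tibetan pigs (ZZ) and 1 from Duroc by Tibetan crosses (DZ), 8 libraries in all. Each library was a pool of 5 embryos of 1 sow, so that the p-values below measure the spread between these libraries and not between animals. The sample labels name no treatment.

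Retinoic acid is made from vitamin A (retinol) inside cells. STRA6 carries retinol across the cell membrane, dehydrogenases oxidise it to retinaldehyde, and ALDH1A2 oxidises retinaldehyde to retinoic acid, which binds nuclear receptors of the RAR family paired with RXR partners. CYP26 enzymes break it down, and the somite is a classical site of its synthesis in the embryonic trunk. In the RefSeq annotation of Sscrofa11.1, STRA6 lies at chr7:59317930-59347274, DHRS3 at chr6:72556234-72599233, ALDH1A2 at chr1:113932722-114037059, CRABP1 at chr7:47602316-47608865, CRABP2 at chr4:93388198-93393861, CYP26A1 at chr14:104561394-104567099 and RXRG at chr4:85158313-85357116.

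The deposited matrices hold UMI counts, the numbers of distinct RNA molecules of each gene in each cell barcode. After removal of low-quality barcodes and probable doublets, 74147 of 90688 barcodes remained as cells, with 39852689 to 57568895 UMIs per library and a median of 3405 to 6160.5 UMIs per cell. The E16-ZZ library stood apart, with 39.2% of its barcodes over the limit of 10% mitochondrial UMIs against 1.05% to 9.15% in the other 7 libraries. Pairs of libraries shared 23 to 49 barcode sequences, at most 0.453% of the smaller library. Cells were gated into 15 types by 8 markers each, a cell being counted as a type where at least 3 of its markers were found and no other type had as many, and this placed 33042 cells in a gate. Each of the 14 types that had at least 20 cells in at least 3 libraries had at least 1 of its own markers among the 10 genes that led it, and never more markers of another type. The gates were set by these same markers, so this is no test of them. Markers of other types that led a gate were PAX7 in early dermomyotome-like and STMN2 in early neural crest and glia-like cells. In early myoblast-like cells they were MEOX1 and TNNT1. None of the genes of the set was a marker. Levels are given as counts per 1000000 UMIs (CPM) of summed cells, in the order ZZ then DZ at each stage, and for a gated type in the libraries with at least 20 of its cells. In such sums fewer cells of a kind and less RNA per cell cannot be told apart. Gene levels are compared between samples and not between genes. Stages were set against each other as late (E21 and E28) against early (E16 and E18), by edgeR's quasi-likelihood test over all genes with Benjamini-Hochberg adjustment, and a gene was called where the adjusted p fell below 0.05. The software version of the count tables is tied to E16 and the tissue to E28, and neither can be told apart from the stage.

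Over whole libraries, DHRS3 and RXRG rose from early to late embryos, and none of the other 6 genes passed the test. DHRS3, a reductase that turns retinaldehyde back into retinol, was at 22 and 19.7 CPM (E16), 23.6 and 22.8 (E18), 66.9 and 58.3 (E21) and 65.2 and 60.5 (E28). The late libraries all exceeded the early ones, with a mean of 22 ± 1.69 CPM (SD, n = 4) early and 62.7 ± 4.02 CPM (SD, n = 4) late (log2 fold change 1.32 ± 0.09 (SE), adjusted p = 0.00041). RXRG, a retinoid X receptor that pairs with other nuclear receptors, was at 0.477 and 0.713 CPM (E16), 1.7 and 2.46 (E18), 20.1 and 7.73 (E21) and 29.7 and 50.1 (E28). Its late libraries also lay wholly above the early ones (log2 fold change 4.13 ± 0.65 (SE), adjusted p = 0.0035), and myoblast-like cells, in which it was high at E28, numbered 59 in the early libraries and 2879 in the late ones. The part of this change in cell numbers in the rise over whole libraries was not tested. These 2 of 8 genes are set against 35.7% of all 14683 genes called in the same comparison, and the median log2 fold change was -0.12 over the 8 genes and 0.02 over all genes tested. Both calls held in each of the 20 other settings tried, at a largest adjusted p of 0.0101 for DHRS3 and 0.0496 for RXRG.

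**Figure D1:**
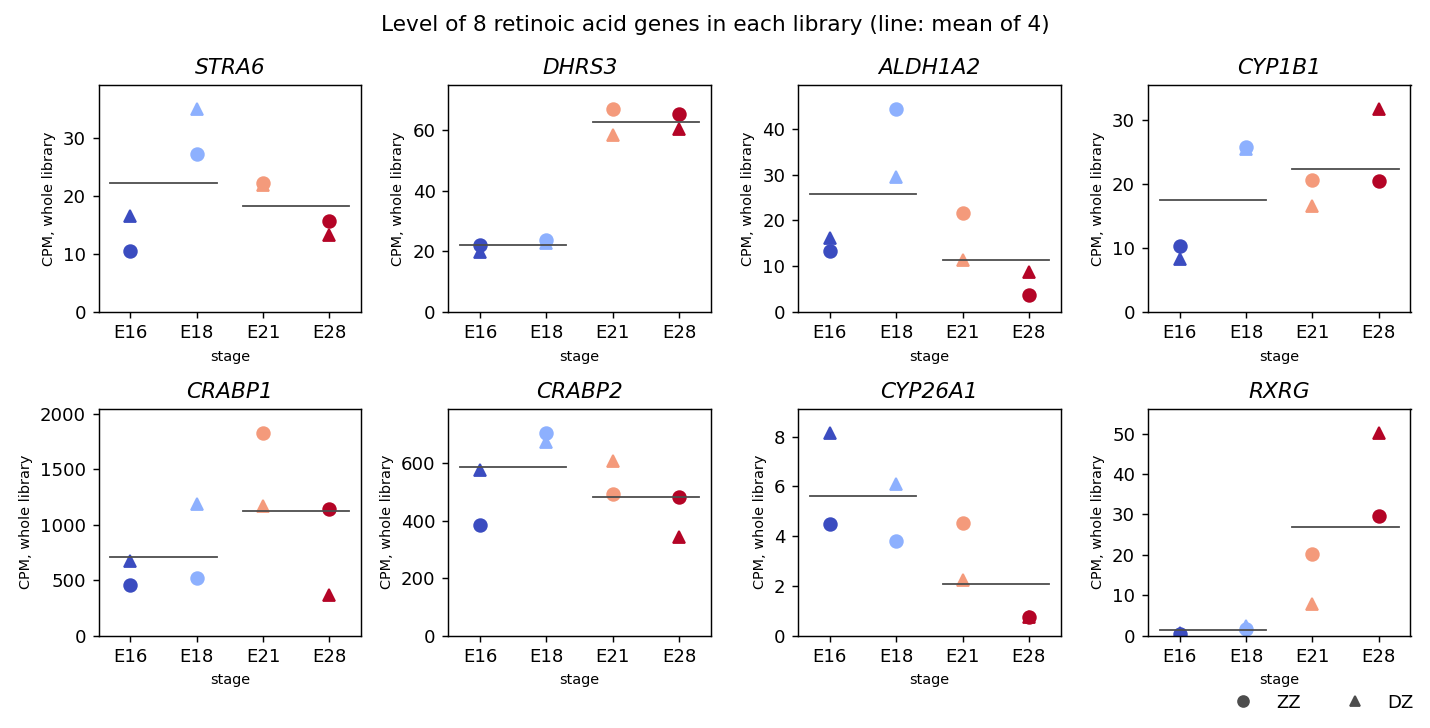
Level of each of the 8 genes in every library, as CPM of all kept cells on a linear axis that starts at 0, against the stage. Circles are ZZ and triangles DZ, and each line is the mean of the 4 early or the 4 late libraries. DHRS3 and RXRG show no overlap between early and late libraries, whereas the CRABP1 and CYP1B1 levels overlap widely.

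ALDH1A2, the main retinoic acid synthase of the early embryo, was at 13.3 and 16.2 CPM (E16), 44.3 and 29.4 (E18), 21.7 and 11.4 (E21) and 3.6 and 8.6 (E28). It was highest at E18 and lowest at E28, the E21-ZZ library lay within the early range, and the comparison did not pass (log2 fold change -1.37 ± 0.52 (SE), adjusted p = 0.0715). CYP26A1, which oxidises retinoic acid to inactive products, was at 4.49 and 8.14 CPM (E16), 3.79 and 6.07 (E18), 4.52 and 2.24 (E21) and 0.744 and 0.758 (E28). Its E28 levels lay below all others, and it did not pass either (log2 fold change -1.62 ± 0.57 (SE), adjusted p = 0.0556). Both passed when E21-ZZ was left out, with log2 fold changes of -1.93 (adjusted p = 0.0321) and -2.45 (adjusted p = 0.00706). E21-ZZ was the highest late library for both genes, so leaving it out favours a fall and is no separate support. With all libraries, both passed DESeq2's Wald test (adjusted p = 0.0196 and 0.0169).

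STRA6 was at 10.4 and 16.5 CPM (E16), 27.3 and 35 (E18), 22.2 and 21.8 (E21) and 15.7 and 13.3 (E28), highest at E18 in both breeds (log2 fold change -0.43 ± 0.33 (SE), adjusted p = 0.339). CYP1B1, a cytochrome that can oxidise retinol and retinaldehyde besides steroids, was at 10.2 and 8.24 CPM (E16), 25.7 and 25.4 (E18), 20.5 and 16.5 (E21) and 20.4 and 31.6 (E28) (log2 fold change 0.19 ± 0.37 (SE), adjusted p = 0.713). The sign of its value turned to -0.05 without the E28 libraries and to -0.30 without the E16 libraries. The cellular retinoic acid binding protein CRABP1 was at 461 and 677 CPM (E16), 519 and 1188 (E18), 1828 and 1168 (E21) and 1144 and 365 (E28). The early range lay inside the late one, with E21-ZZ above it and E28-DZ below it (log2 fold change 0.49 ± 0.49 (SE), adjusted p = 0.45). CRABP2, the related protein that hands retinoic acid to its nuclear receptors, was at 387 and 579 CPM (E16), 706 and 675 (E18), 495 and 608 (E21) and 484 and 345 (E28) (log2 fold change -0.44 ± 0.22 (SE), adjusted p = 0.154).

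ZZ and DZ embryos showed no difference that passed the test for any of the 8 genes. The DZ against ZZ log2 fold changes, with the stage as a block, ran from -0.15 ± 0.08 (SE) for DHRS3 to 0.22 ± 0.31 for CYP26A1. None of the 8 had an unadjusted p under 0.05 in edgeR, none passed DESeq2, and 0.00661% of 15119 genes were called by edgeR. The change from early to late did not differ between the breeds for any of the 8 genes either, at an unadjusted p under 0.05 or with DESeq2, and the share of all genes called by edgeR was 0%. The largest of these values was that of CRABP1 (-1.77 ± 0.77, unadjusted p = 0.054 and adjusted p = 1 in edgeR). With 1 library of each breed and stage, the standard errors were unequal between genes. They ran from 0.08 (DHRS3) to 0.44 (CRABP1) for the breed. For the difference in change they ran from 0.20 (DHRS3) to 1.35 (RXRG). Differences of that size could be missed.

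Each gated cell type was then set against the other cells of the same libraries, with the library as a block. This asks in which gated types of the dissected tissue each gene was higher or lower. The other cells took in those that no gate held, 55.4% of all cells, and cells of a type that missed its gate may be among them. Most UMIs of STRA6, ALDH1A2, CYP1B1, CRABP2 and CYP26A1 lay in cells that no gate held. For these genes the gated types do not show where most of the RNA was. In the somite derivatives, 6 of 8 genes were called in dermomyotome-like cells (12.8% of all genes tested were called), 4 in sclerotome-like cells (7.56%) and 7 in cartilage-like cells (19.6%). Among muscle cells, 5 were called in myoblast-like cells (26.9%), 7 in myocyte-like cells (39.8%) and 6 in cardiac muscle-like cells (17.8%), the last count falling to 1 without either E16 library and to 2 without E18-ZZ. In the nervous system, 7 were called in neural progenitor-like cells (23.7%), 5 in neuron-like cells (45%) and 5 in neural crest and glia-like cells (25.8%). In the other types, 1 was called in connective tissue-like cells (15.3%; 2 genes without E21-DZ), 6 in endothelial-like cells (48.6%; 0 with a mitochondrial limit of 5%), 8 in erythroid-like cells (46.4%), 4 in epithelial-like cells (23.9%; 2 without E18-ZZ) and 3 in lateral mesoderm-like cells (16.6%). The called genes were lower in their type in every case in connective tissue-like, neural progenitor-like, neuron-like, endothelial-like, erythroid-like, epithelial-like and lateral mesoderm-like cells. In epithelial-like cells these were STRA6, ALDH1A2, CYP1B1 and CRABP1, in lateral mesoderm-like cells STRA6, CYP1B1 and CRABP1, and in endothelial-like cells all but DHRS3 and CYP1B1. Higher levels were called in dermomyotome-like, sclerotome-like, cartilage-like, myoblast-like, myocyte-like, cardiac muscle-like and neural crest and glia-like cells. In cardiac muscle-like cells the gene called higher was RXRG, which rested on 1, 2 and 4 UMIs in the 3 libraries used and lost its call in 5 of 16 other settings.

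Ordered by the median over libraries, the types with the most STRA6, ALDH1A2 and CYP1B1 were the sclerotome-like cells (60.5, 62.2 and 60.5 CPM), and dermomyotome-like cells came next for ALDH1A2 and CYP1B1 (27.9 and 29.1 CPM). DHRS3 was highest of these 14 types in cartilage-like and connective tissue-like cells (128 and 104.7 CPM), CRABP1 in neuron-like cells (5751 CPM), CRABP2 in dermomyotome-like cells (1112 CPM), CYP26A1 in epithelial-like and cartilage-like cells (8.31 and 7.95 CPM) and RXRG in neural crest and glia-like and neuron-like cells (30.5 and 29.5 CPM). In each of the 8 orders the ranges of neighbouring types over libraries overlapped. The first type lay wholly above the last for STRA6, DHRS3, CYP1B1, CRABP1 and CRABP2, and the first and last overlapped for ALDH1A2 and CYP26A1. For RXRG, sclerotome-like, neural progenitor-like and erythroid-like cells shared a last median of 0, and the first type lay wholly above the former pair and overlapped the erythroid-like cells. The medians rest on unlike stages, since sclerotome-like cells had no library of 20 cells at E28 and myocyte-like cells none at E16. At E18 alone, STRA6 was higher in myocyte-like cells (189.5 and 186 CPM) than in sclerotome-like cells (72.3 and 115 CPM). Macrophage-like cells reached 20 cells in only the 2 E28 libraries and were left out of the orders, and DHRS3 was at 125 and 162 CPM there.

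Erythroid-like cells, which should lack these genes, were taken as the background of free RNA in the droplets. There the CPM reached at most 3.3 for RXRG, 3.23 for STRA6, 2.5 for CYP26A1, 2.74 for CYP1B1 and 6.46 for DHRS3 and ALDH1A2 each. These highest levels rested on 1, 1, 2, 3, 2 and 2 UMIs, at or below the level of 3 counts in their sums. For these 6 genes they are a rough bound and not a measured level of free RNA. CRABP1 and CRABP2 reached 158 and 71.2 CPM, in E28-ZZ and E16-ZZ. The 158 CPM of CRABP1 came from 48 UMIs in 5 of 39 cells, and in the other libraries CRABP1 was at 18.2 to 66.7 CPM. All 8 genes were lower in erythroid-like cells than in the other cells, where the median log2 fold change was -2.78 over the 8 and -0.56 over all genes tested. CYP26A1 in erythroid-like cells lost its call without E16-DZ (adjusted p = 0.0998).

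The retinol transporter gene STRA6 was called higher in sclerotome-like, dermomyotome-like, myocyte-like and cartilage-like cells. In dermomyotome-like cells, which carry PAX3 and lie above the muscle, it was at 40.9 and 96.6 CPM (E16), 56.9 and 71.7 (E18), 27.6 and 26.7 (E21) and 4.6 and 4.9 (E28). The E28 levels rested on 1 UMI each, in 46 and 51 cells. STRA6 fell from every early to every late library (log2 fold change -1.69 ± 0.35 (SE), adjusted p = 0.00503), and over all stages it was higher than in the other cells (1.17 ± 0.23, adjusted p = 0.00124). In sclerotome-like cells, the PAX1 and PAX9 cells that form the vertebrae, STRA6 was at 60.5 CPM in DZ (E16), 72.3 and 115 (E18) and 36.3 and 44.1 (E21) (log2 fold change 1.38 ± 0.17 (SE), adjusted p = 1.1e-06). Myocyte-like cells, which have begun to make contractile proteins, held 189.5 and 186 CPM (E18), 41.8 and 41.7 (E21) and 27.1 and 31.9 (E28). The E18 levels were the highest of any tested type (1.91 ± 0.24, adjusted p = 0.00015 against the other cells). The call for STRA6 against the other cells in dermomyotome-like cells was lost with DESeq2 (adjusted p = 0.109). The call for STRA6 against the other cells in cartilage-like cells was lost with gates of 1 marker more (adjusted p = 0.0653) and without the E28 libraries (adjusted p = 0.0619).

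Neural crest and glia-like cells went the other way. STRA6 was at 0.754 and 7.37 CPM (E16), 3.74 and 2.66 (E18), 31 and 22 (E21) and 12.8 and 18.9 (E28) there, every late library lying above every early one (log2 fold change 2.62 ± 0.40 (SE), adjusted p = 0.00037). The E16-ZZ level rested on 1 UMI. A UMI of STRA6 was found in 2.33% of early and 11.09% of late neural crest and glia-like cells, at median depths of 6874 and 5208 UMIs, and after thinning each cell to 1500 UMIs in 0.416% and 3.4%. The erythroid-like shares were 0.615% early and 0.538% late, at median depths of 7491 and 7986 UMIs, and 0.0824% and 0.206% when thinned. Neural progenitor-like cells had STRA6 at 0 to 3.19 CPM over 5 libraries (-4.25 ± 0.42, adjusted p = 8.6e-10 against the other cells). This was no more than the highest erythroid-like level, which rested on 1 UMI.

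DHRS3 was called higher in cartilage-like cells and, at early stages, was at its highest in connective tissue-like cells. Cartilage-like cells held 24.7 and 14.9 CPM (E18), 152 and 118 (E21) and 139 and 206 (E28) (log2 fold change 1.32 ± 0.23 (SE), adjusted p = 0.00284 against the other cells). The E21 and E28 levels stood apart from the E18 ones (3.103 ± 0.34, adjusted p = 0.0178 late against early), a call lost without E18-ZZ (adjusted p = 0.254) or E18-DZ (adjusted p = 0.438). The call for DHRS3 against the other cells was lost with gates of 1 marker fewer (adjusted p = 0.182). In dermomyotome-like cells DHRS3 was at 4.09 and 9.02 CPM (E16), 7.59 and 7.97 (E18), 44.5 and 63.8 (E21) and 41.4 and 34.3 (E28). Late levels lay wholly above early ones (log2 fold change 2.67 ± 0.29 (SE), adjusted p = 4.5e-05).

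Connective tissue-like cells went against this trend, with DHRS3 at 133.6 and 164 CPM (E16), 137 and 156 (E18), 45 and 36.8 (E21) and 75.9 and 75.3 (E28). The late levels were all lower than the early ones (log2 fold change -1.65 ± 0.23 (SE), adjusted p = 0.00059). The early gate was led by DCN, POSTN, LUM, IGFBP7 and AQP3 and the late gate by ASPN, COL6A3, LUM, DCN and OGN, and the part of this difference in make-up in the result was not tested. In neural crest and glia-like cells DHRS3 was at 4.52 and 7.99 CPM (E16), 11.2 and 7.79 (E18), 38.1 and 14.1 (E21) and 26.9 and 13.3 (E28) (log2 fold change 1.36 ± 0.29 (SE), adjusted p = 0.00352). The difference between dermomyotome-like and neural crest and glia-like cells in the DHRS3 rise did not pass (log2 fold change 1.18 ± 0.43 (SE), adjusted p = 0.0962). Neuron-like cells held little, 0 to 14.6 CPM (-3.14 ± 0.35, adjusted p = 1.6e-05 against the other cells).

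ALDH1A2 fell from early to late in dermomyotome-like cells. Dermomyotome-like cells held 45 and 54.1 CPM (E16), 43.9 and 36.2 (E18), 3.07 and 1.48 (E21) and 0 and 19.6 (E28). Every late library lay below every early one, E28-DZ being the highest of the late 4 (log2 fold change -3.41 ± 0.56 (SE), adjusted p = 0.00073). The late levels rested on 2 and 1 UMIs (E21) and 0 and 4 (E28). In sclerotome-like cells it was at 129 CPM in DZ (E16), 62.2 and 102 (E18) and 0 and 0 (E21). The 2 late sclerotome-like sums held 0 UMIs of ALDH1A2 in 104 cells, which allows up to 5.56 CPM, against 129 UMIs or 81.9 CPM in the early ones, at least 14.7-fold lower by a floor of 3 counts over the late group (9.78-fold without E21-DZ and 4.95-fold without E21-ZZ). The E28-DZ sum of 9 cells, below the minimum of 20, held 4 UMIs of ALDH1A2, all in 1 cell. The call in this type was lost without E18-ZZ (adjusted p = 0.0576) or without E21-ZZ (adjusted p = 0.399). Over all stages ALDH1A2 was not called against the other cells in dermomyotome-like (0.36 ± 0.27, adjusted p = 0.468) or sclerotome-like cells (0.95 ± 0.31, adjusted p = 0.0666). Lateral mesoderm-like cells, which lie beside the somites, held 12.1 and 18.9 CPM (E16) and 52.1 and 32.9 (E18), which did not pass either (0.16 ± 0.10, adjusted p = 0.377). Neural crest and glia-like cells held at most 3.33 CPM in any library (-3.98 ± 0.32, adjusted p = 4.3e-07 against the other cells). This lay within the erythroid-like range, whose top rested on 2 UMIs in 1 cell.

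In neuron-like cells ALDH1A2 was at 0 CPM in DZ (E16), 12.2 and 3.17 (E18), 57.6 and 26.8 (E21) and 0 and 0 (E28). It was high at E21 in both breeds and at 0 at E28, and late against early did not pass (log2 fold change 2.05 ± 1.19 (SE), adjusted p = 0.252), whereas it passed without the E28 libraries (log2 fold change 2.67, adjusted p = 0.00165). The libraries left out were those at 0 among the late ones, so that pass is no separate support. Motor neurons of the limb levels are a known site of ALDH1A2. Of all ALDH1A2 UMIs, 69.1% lay in cells that no gate held, which carried 48.3% of all UMIs.

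CYP1B1 was called higher in sclerotome-like and dermomyotome-like cells. Sclerotome-like cells held 60.5 CPM in DZ (E16), 63.3 and 68.2 (E18) and 27.9 and 27.6 (E21) (log2 fold change 1.24 ± 0.20 (SE), adjusted p = 8e-05 against the other cells). In dermomyotome-like cells it was at 47.1 and 19.3 CPM (E16), 51.9 and 39 (E18), 33.8 and 17.8 (E21) and 9.19 and 24.5 (E28) (0.80 ± 0.19, adjusted p = 0.00599), a call that was lost without E18-ZZ (adjusted p = 0.0536). Late against early was not called in either type (adjusted p = 0.103 in sclerotome-like and 0.0908 in dermomyotome-like cells). Connective tissue-like cells were at 2.62 and 12.2 CPM (E16), 8.16 and 3.89 (E18), 35.5 and 14.5 (E21) and 20.2 and 39.4 (E28), higher in every late than in every early library (log2 fold change 2.04 ± 0.46 (SE), adjusted p = 0.00742), a call lost without E18-DZ (adjusted p = 0.0549). Myoblast-like and myocyte-like cells were below the other cells (-1.17 ± 0.20, adjusted p = 0.00093, and -1.76 ± 0.36, adjusted p = 0.00324). The call for CYP1B1 in dermomyotome-like cells was lost with DESeq2 (adjusted p = 0.0809) and with a mitochondrial limit of 5% (adjusted p = 0.0597). The call for CYP1B1 in myoblast-like cells was lost without the E28 libraries (adjusted p = 0.0979). The call for CYP1B1 in connective tissue-like cells was lost with gates of 1 marker fewer (adjusted p = 0.146), with gates of 1 marker more (adjusted p = 0.0789) and without the E16 libraries (adjusted p = 0.0759).

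**Figure D2:**
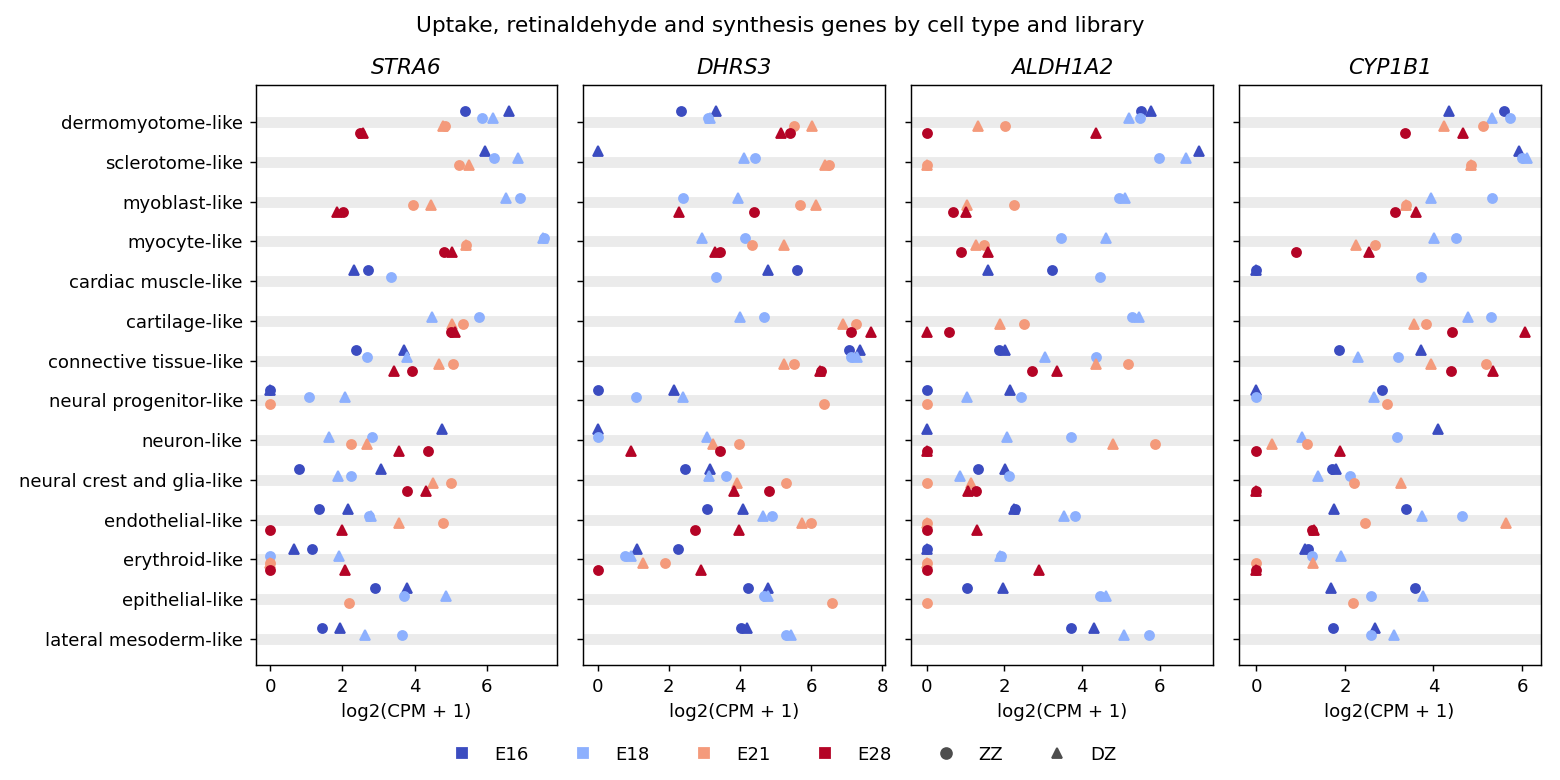
Levels of STRA6, DHRS3, ALDH1A2 and CYP1B1, as log2(CPM + 1) on the horizontal axis, in the 14 cell types named on the vertical axis. Each point is 1 library with at least 20 cells of the type, coloured by stage, with circles for ZZ and triangles for DZ and no error bars. The early points of STRA6 and ALDH1A2 lie to the right of the late ones in dermomyotome-like cells, and the order is the other way round for DHRS3.

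CRABP1 was high in neuron-like cells up to E21 and in early neural crest and glia-like cells. Neuron-like cells held 6343 CPM in DZ (E16), 8218 and 10870.3 (E18), 5751 and 3663 (E21) and 472 and 186 (E28). The E28 levels were far below the others, and CRABP1 missed the threshold against the other cells (log2 fold change 1.88 ± 0.71 (SE), adjusted p = 0.0516) and passed without the E28 libraries (log2 fold change 2.95, adjusted p = 0.0001). The libraries left out were the low ones, so that pass is no separate support. Neural crest and glia-like cells held 4996 and 6671 CPM (E16), 2567 and 3919 (E18), 449 and 345 (E21) and 739 and 596 (E28). Every early library lay above every late one (log2 fold change -3.23 ± 0.31 (SE), adjusted p = 1e-05), and over all stages the comparison with the other cells did not pass (1.16 ± 0.78, adjusted p = 0.314). Neural progenitor-like cells, at 329 to 1071 CPM, were lower than the other cells (-0.71 ± 0.20, adjusted p = 0.00708). CRABP1 was among the genes that led the early neural crest and glia-like gate, a list drawn from the same sums and so no separate support.

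In dermomyotome-like cells CRABP1 moved the opposite way, with 135 and 63.1 CPM (E16), 101 and 246 (E18), 796 and 310.0 (E21) and 391 and 603 (E28). All late levels were above all early ones (log2 fold change 1.88 ± 0.35 (SE), adjusted p = 0.0029). This call was lost without both E16 libraries (log2 fold change 1.62, adjusted p = 0.0507). Erythroid-like cells of the same early libraries held less, 23.7 and 45.4 CPM (E16) and 18.2 and 66.7 (E18). The highest erythroid-like level, 158 CPM in E28-ZZ, lay above 3 of the early 4. Over all stages CRABP1 was lower in dermomyotome-like cells than in the other cells (-1.80 ± 0.25, adjusted p = 4.1e-05). Connective tissue-like cells were at 51.3 and 148.9 CPM (E16), 197 and 82.9 (E18), 852 and 954 (E21) and 1792 and 753 (E28), again higher late (log2 fold change 2.92 ± 0.41 (SE), adjusted p = 0.00056). Sclerotome-like cells held 113 CPM in DZ (E16), 259.9 and 102 (E18) and 802 and 254 (E21) (log2 fold change 1.55 ± 0.22 (SE), adjusted p = 9.4e-05). Their early and late ranges overlapped, and leaving out E18-ZZ, E21-ZZ or E21-DZ ended that call (adjusted p = 0.151, 0.593 and 0.0788).

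CRABP1 fell in differentiating muscle. Myocyte-like cells held 916 and 1329 CPM (E18), 213 and 176 (E21) and 159 and 58 (E28). The E18 levels stood apart (log2 fold change -2.85 ± 0.41 (SE), adjusted p = 0.00589), and the call was lost without E18-ZZ (adjusted p = 0.0634) or E18-DZ (adjusted p = 0.201). In cartilage-like cells CRABP1 was at 341 and 739 CPM (E18), 123 and 149.3 (E21) and 47.5 and 41.2 (E28), which did not pass late against early (log2 fold change -2.37 ± 0.55 (SE), adjusted p = 0.0961). The lowest levels, in cardiac muscle-like cells, were 14 to 44.6 CPM, each below the erythroid-like level of the same library (-4.21 ± 0.21, adjusted p = 6.9e-09 against the other cells).

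CRABP2 was high in dermomyotome-like cells, at 1326 and 1582 CPM (E16), 1506 and 1597 (E18), 899 and 742 (E21) and 524 and 529 (E28). It was above the other cells (log2 fold change 0.96 ± 0.14 (SE), adjusted p = 6.1e-05) and fell from early to late without overlap (-1.18 ± 0.17, adjusted p = 0.00052). Myoblast-like cells, the dividing muscle precursors with MYF5 and PAX7, held 1799.8 and 1702 CPM (E18), 615 and 509 (E21) and 103 and 65.2 (E28). The step down at each stage was seen in both breeds, but no gene of the set was called late against early in these cells, where only the 2 E18 libraries of 55 cells stood for early (log2 fold change -2.36 ± 0.78 (SE), adjusted p = 0.279). Myocyte-like cells held 1505 and 1394 CPM (E18), 278 and 317 (E21) and 84.3 and 96 (E28) (log2 fold change -2.82 ± 0.49 (SE), adjusted p = 0.0128), a call lost without E18-ZZ (adjusted p = 0.215) or E18-DZ (adjusted p = 0.201).

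Neuron-like cells lost CRABP2 as well, with 588 CPM in DZ (E16), 377 and 321 (E18), 67.5 and 93.1 (E21) and 19.6 and 11.8 (E28). The late libraries lay wholly below the early ones (log2 fold change -3.11 ± 0.56 (SE), adjusted p = 0.00608), although the call was lost without E18-ZZ (adjusted p = 0.065). Neural crest and glia-like cells went from 792 to 948 CPM early down to 208 to 641 CPM late (-1.18 ± 0.31, adjusted p = 0.0117; adjusted p = 0.0746 without the E16 libraries). Endothelial-like cells fell from a low level, 55 and 145 CPM (E16) and 136 and 119 (E18) (-1.30 ± 0.32, adjusted p = 0.0129). The ranges overlapped, E16-ZZ lying below E21-ZZ. The late endothelial-like levels were 65.6 and 52.1 CPM (E21) and 49.2 and 26.5 (E28), below the highest erythroid-like level, that of E16-ZZ. Erythroid-like cells of the same late libraries held 8.22 and 20 CPM (E21) and 42.9 and 42 (E28). Connective tissue-like cells were the one tested type in which a rise was called, with 47.1 and 94.2 CPM (E16), 332 and 122 (E18), 989 and 1109.6 (E21) and 642 and 526 (E28) (2.22 ± 0.49, adjusted p = 0.00711). The call for CRABP2 in endothelial-like cells was lost with gates of 1 marker fewer (adjusted p = 0.0956), with gates of 1 marker more (adjusted p = 0.0567) and without the E28 libraries (adjusted p = 0.14). The call for CRABP2 in connective tissue-like cells was lost without the E16 libraries (adjusted p = 0.0726).

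CYP26A1 was found with 1552 UMIs in 1272 cells. It was called higher in cartilage-like cells, which held 18 and 23.1 CPM (E18), 7.13 and 8.76 (E21) and 1.98 and 3.69 (E28) (log2 fold change 1.98 ± 0.30 (SE), adjusted p = 0.00098). Sclerotome-like cells held 0 CPM in DZ (E16), 11.3 and 23.3 (E18) and 2.79 and 0 (E21), which did not pass (1.21 ± 0.41, adjusted p = 0.08). Epithelial-like cells held 5.16 and 11.2 CPM (E16), 8.31 and 9.46 (E18) and 0 in ZZ (E21) and lateral mesoderm-like cells 5.49 and 10.3 CPM (E16) and 0.316 and 0.953 (E18), neither of which passed. In dermomyotome-like cells it was at 4.09 and 3.86 CPM (E16), 7.59 and 6.77 (E18), 0 and 0 (E21) and 0 and 0 (E28). No UMI was found in the 332 late cells, which allows 1.72 CPM, against 6.51 CPM early, at least 3.79-fold lower by the floor of 3 counts (2.33-fold without E21-DZ and 2.38-fold without E21-ZZ). CYP26A1 did not pass the filter on low counts for the test within this type. Myoblast-like cells held 3 UMIs in all libraries.

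CYP26A1 is known to be switched on by retinoic acid itself, through paired half-sites near its start that RAR and RXR bind. Its promoter region was searched for that reason in the RefSeq annotation of Sscrofa11.1, which is also the build of the count matrices. The 300 bases from 250 before to 50 after each transcript start were scanned on both strands for the half-site AGGTCA, the related half-site AGTTCA, the half-site GGGTCA and the half-site GGTTCA, any of them followed by another in the same direction with 1, 2 or 5 bases between. Of 17 such windows of 8 genes of the set, RARB among them and CYP1B1 not, 1 held a match, in CYP26A1, with a spacing of 5. The stretch lies at chr14:104563524-104563552 on the plus strand, which is the gene's own strand. The repeat is AGTTCA on the opposite strand and reads as TGAACT on the strand printed, so the capitals mark those half-sites.
CYP26A1: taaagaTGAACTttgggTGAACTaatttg
The repeat runs at positions -64 to -48 from the start of 1 of 2 RefSeq transcripts of CYP26A1, and falls in an exon of the other, longer transcript. A spacing of 5 was found in 21 of 46014 windows of 19547 genes (0.0456%), and any of the 3 spacings in 109 (0.237%). The match describes letters only, and binding was not measured.

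RXRG was concentrated in muscle, neural crest and nerve cells. Myoblast-like cells, which carried 4.11% of all UMIs, held 39.1% of its 4922 UMIs, and neuron-like, myocyte-like and neural crest and glia-like cells held 15.9%, 15.6% and 12% more. In myoblast-like cells it was at 0 and 0 CPM (E18), 13.8 and 13.2 (E21) and 126 and 183 (E28). The E18 sums held no RXRG UMI in 55 cells, which allows 6.82 CPM, against 125.9 CPM over the late cells, at least 18.5-fold higher by the floor of 3 counts (8.71-fold without E18-ZZ, 9.75-fold without E18-DZ and 11.6-fold without E28-DZ). The late UMIs came mostly from E28 (613 and 1263, against 22 and 25 at E21). The bound thus describes the late cells as a pool and not each late library. Against the other cells of the libraries RXRG was higher in myoblast-like cells (log2 fold change 1.92 ± 0.45 (SE), adjusted p = 0.00718), a call lost without E28-ZZ (adjusted p = 0.0616) and gone without both E28 libraries (log2 fold change 0.09, adjusted p = 0.91). The late-against-early test within these cells did not call it (0.48 adjusted). RXRG was among the genes that led the late myoblast-like gate, a list drawn from the same sums and so no separate support. With DESeq2 the comparison with the other cells did not pass (adjusted p = 0.416).

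Differentiating muscle showed the same course. Myocyte-like cells held 0 and 1.67 CPM (E18), 26.3 and 19.7 (E21) and 129 and 83.7 (E28), late levels wholly above early ones (adjusted p = 0.0493). The early cells held 1 UMI of RXRG and the late cells 766, a ratio of the pooled CPM of 85.6-fold, with a 95% exact binomial interval of 15.3 to 3386 for counting error only. The call stood on the E18 libraries and was lost without E18-ZZ (adjusted p = 0.415) or E18-DZ (adjusted p = 0.367). Neural crest and glia-like cells held 5.28 and 2.46 CPM (E16), 5.41 and 4.3 (E18), 71.5 and 55.6 (E21) and 209.9 and 139 (E28). The late levels did not overlap the early ones (log2 fold change 4.53 ± 0.41 (SE), adjusted p = 6.6e-06), and RXRG was higher there than in the other cells over all stages (2.26 ± 0.27, adjusted p = 8.9e-05). Both of these calls held in every other setting. The call for RXRG late against early in myocyte-like cells was lost with median-of-ratios size factors (adjusted p = 0.0502), with the older quasi-likelihood fit (adjusted p = 0.0517) and with no doublets removed (adjusted p = 0.0966). The call for RXRG against the other cells in myocyte-like cells was lost without the E28 libraries (adjusted p = 0.0524).

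In neuron-like cells the order of stages was different, with RXRG at 0 CPM in DZ (E16), 85.1 and 68.6 (E18), 66.4 and 29.5 (E21) and 6.55 and 10.9 (E28). It was highest at E18 and E21 and low at E28, and neither late against early (log2 fold change -1.06 ± 0.67 (SE), adjusted p = 0.303) nor the comparison with the other cells passed (2.36 ± 1.03, adjusted p = 0.0816). The latter passed without the E28 libraries (log2 fold change 3.85, adjusted p = 0.00223), which were low ones, so that pass is no separate support. Dermomyotome-like cells stayed at or below 13.8 CPM (-1.39 ± 0.43, adjusted p = 0.0343 against the other cells; adjusted p = 0.0694, 0.0791, 0.0597 and 0.123 without E18-DZ, E21-DZ, E28-ZZ and E28-DZ). Sclerotome-like cells had no RXRG UMI in 333 cells, which allows 1.42 CPM, against 5.9 CPM in the other cells, at least 4.16-fold lower (1.72-fold and adjusted p = 0.112 without E21-ZZ). Cartilage-like cells were at 0 to 1.73 CPM (-4.61 ± 0.22, adjusted p = 1.2e-06). The call for RXRG in dermomyotome-like cells was lost with DESeq2 (adjusted p = 0.265), with gates of 1 marker more (adjusted p = 0.882) and without the E28 libraries (adjusted p = 0.198). The call for RXRG in sclerotome-like cells was lost with DESeq2 (adjusted p = 0.194).

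A UMI of RXRG was found in 38% of late myoblast-like, 25% of late myocyte-like and 31.3% of late neural crest and glia-like cells, at median depths of 4916, 5119 and 5208 UMIs. Late erythroid-like cells gave 1.08% at a median of 7986 UMIs. After thinning to 1500 UMIs the shares were 16.6%, 9.45%, 12.8% and 0.221%, with 13, 25, 2 and 4 shallower cells left out. The muscle and glial shares thus stood above the erythroid-like background at equal depth. Neuron-like cells had lower shares than these, 9.58% early and 7.64% late, and 6.5% and 4.09% when thinned.

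**Figure D3:**
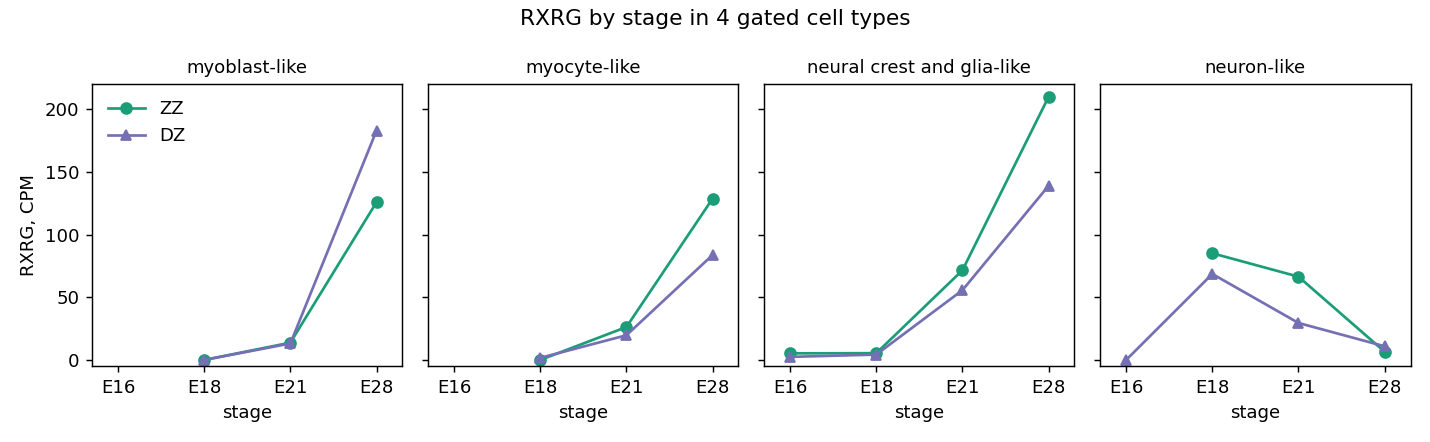
RXRG in 4 gated cell types, as CPM on a linear axis, against the stage. Green circles are ZZ and violet triangles DZ, each point is the sum of the cells of 1 library, and lines join libraries of 1 breed. RXRG is at its highest at E28 in myoblast-like, myocyte-like and neural crest and glia-like cells of both breeds and at its highest at E18 in neuron-like cells.

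**Figure D4:**
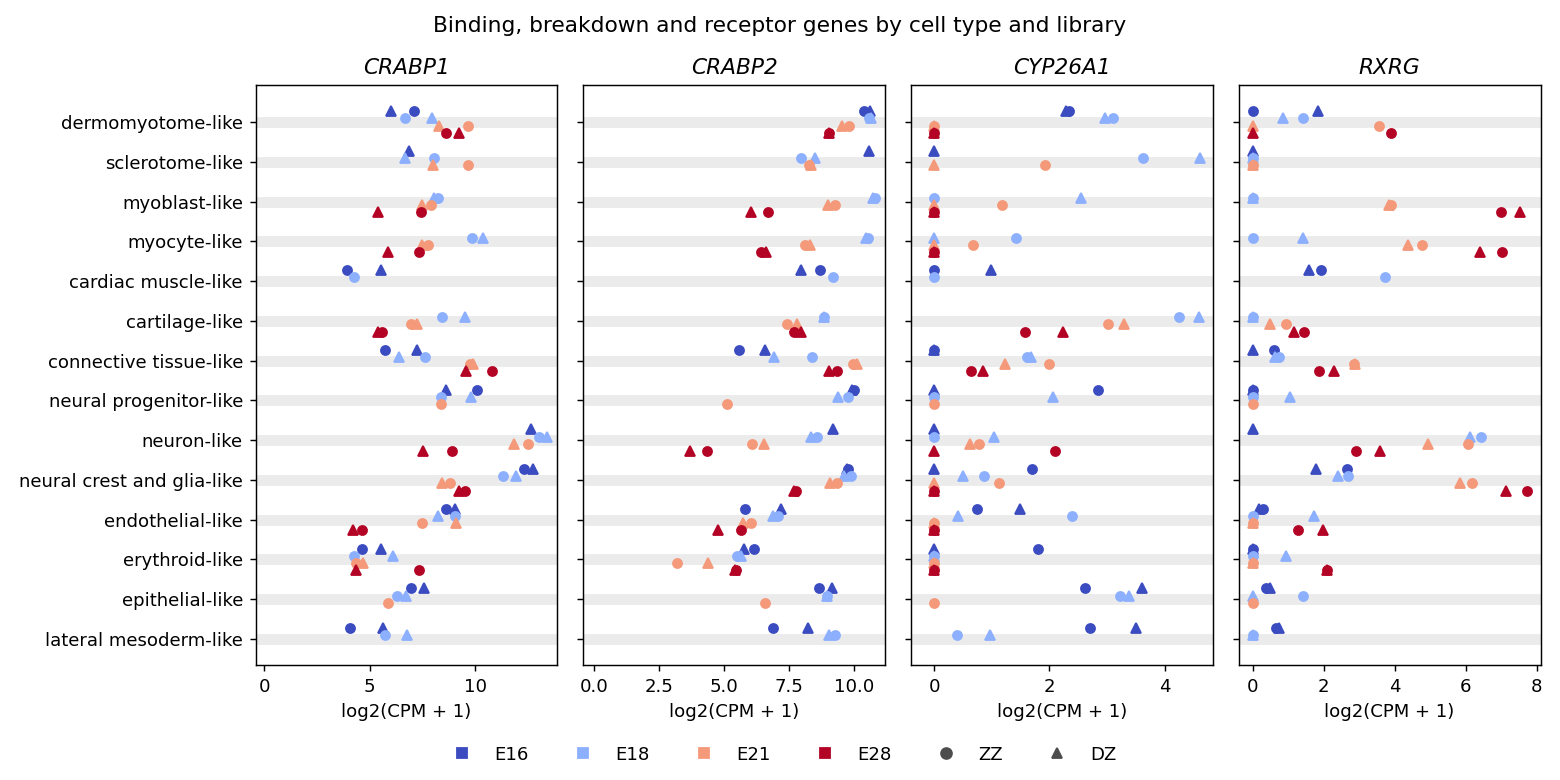
Levels of CRABP1, CRABP2, CYP26A1 and RXRG, as log2(CPM + 1) on the horizontal axis, in the 14 cell types named on the vertical axis. Each point is 1 library with at least 20 cells of the type, coloured by stage, with circles for ZZ and triangles for DZ and no error bars. The 2 highest CRABP1 points are those of neuron-like cells at E18, and RXRG is at 0 in every sclerotome-like point.

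Within cell types, the number of genes of the set that changed between early and late embryos can be read against all genes. In dermomyotome-like cells 5 of 6 tested genes were called (13.3% of all genes), with CYP26A1 and RXRG too low to test. In connective tissue-like cells 5 of 7 were called (29.5%; 3 without E18-DZ), in neural crest and glia-like cells 5 of 5 (31.1%), in neuron-like cells 1 of 5 (19.5%; 0 without E18-ZZ), in endothelial-like cells 1 of 5 (26.9%; 2 without E21-DZ) and in erythroid-like cells 0 of 2 (1.8%). None of the 2 had an unadjusted p under 0.05 in edgeR, and none passed DESeq2. RXRG in connective tissue-like cells lay between 0 and 0.68 CPM early and 2.65 and 6.3 CPM late, and its call there was lost without E16-ZZ (adjusted p = 0.0704), E18-ZZ (adjusted p = 0.0555) or E18-DZ (adjusted p = 0.105). The call for RXRG in connective tissue-like cells was lost without the E16 libraries (adjusted p = 0.125). As given for DHRS3, the leading genes of the early and late connective tissue-like gates were the same only in part.

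A further 4 types with only 2 early libraries or 2 late ones were tested after the values had been seen. Sclerotome-like cells gave 3 of 6 genes called (5.4% of all genes; 0 without E18-ZZ or E21-ZZ and 1 without E21-DZ), among them DHRS3 (log2 fold change 2.39 ± 0.42 (SE), adjusted p = 0.00091). Myocyte-like cells gave 5 of 7 (6.18%; 1 without E18-ZZ and 0 without E18-DZ), among them ALDH1A2 (-3.36 ± 0.56, adjusted p = 0.00911; lost without E18-ZZ or E18-DZ) and STRA6 (-2.33 ± 0.22, adjusted p = 0.00098; adjusted p = 0.0588 without E18-DZ). Cartilage-like cells gave 1 of 7 (0.732%; 0 without either E18 library, 2 without either E21 library and 3 without E28-DZ), DHRS3 (3.103 ± 0.34, adjusted p = 0.0178). Myoblast-like cells gave 0 of 7 in edgeR (0.359%; 1 without either E21 library), with 4 of 7 at an unadjusted p under 0.05 and 1 called by DESeq2, ALDH1A2 (adjusted p = 7e-06).

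The opposite courses of CRABP1 and STRA6 in dermomyotome-like and neural crest and glia-like cells were tested directly, after the values had been seen, as the difference between the types in the late-early change. CRABP1 had risen in dermomyotome-like and fallen in neural crest and glia-like cells, and the changes differed by 4.94 ± 0.38 on the log2 scale (SE, adjusted p = 2.4e-08). STRA6 had fallen in dermomyotome-like and risen in neural crest and glia-like cells, a difference of -4.42 ± 0.36 (adjusted p = 4.7e-08). These were 2 of the 7 genes tested, against 8.92% of all genes. CRABP2, which fell in both types, gave a difference of -0.04 ± 0.15 (adjusted p = 0.925).

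**Figure D5:**
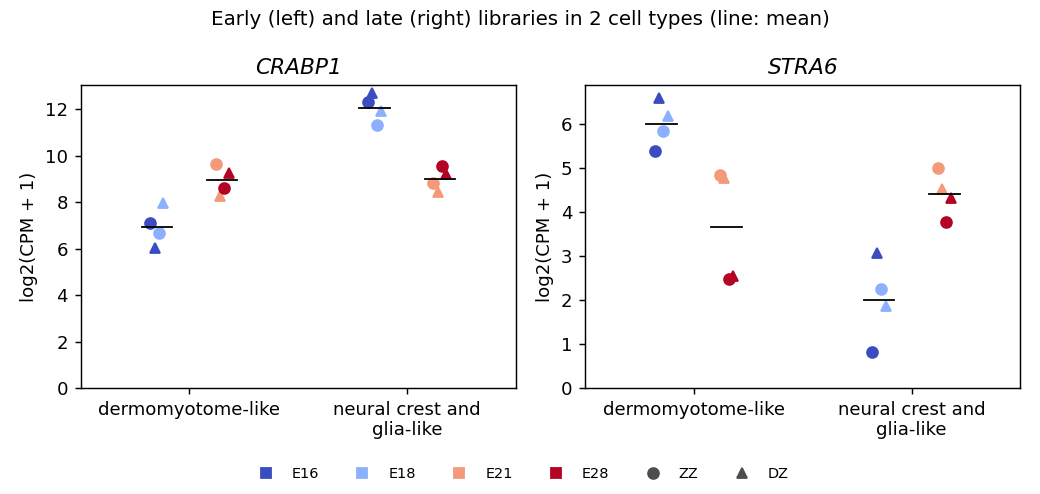
CRABP1 and STRA6 as log2(CPM + 1) on the vertical axis in dermomyotome-like and neural crest and glia-like cells. In each type the 4 early libraries stand on the left and the 4 late ones on the right, coloured by stage, with circles for ZZ and triangles for DZ, and lines mark the means. The early and late points of each gene do not overlap within either type and move in opposite directions in them.

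Other genes of the pathway were taken from a list of 39, of which 37 were found and 35 tested over whole libraries. Late against early, 7 of the 35 rose and 9 fell, against the 35.7% of all genes called. Among receptors and co-regulators, genes that rose included RARA, RARG, RXRB and NCOA1, NCOR1 fell, and 3 of 9 did not pass. Among genes that respond to retinoic acid, 4 of 10 fell and none rose. CDX1, a caudal homeobox gene, was at 2.13 to 5.65 CPM early and 0.109 to 0.34 CPM late (-4.21 ± 0.57, adjusted p = 0.00211). The breakdown enzyme CYP26C1 fell, with 0.122 to 0.73 CPM early and 0 to 0.0227 CPM late (adjusted p = 0.00469), from 95 UMIs to 1 UMI, a ratio of early to late pooled CPM of 80.1-fold, with a 95% exact binomial interval of 14 to 3197 for counting error only. Retinol binding protein RBP7 rose, with 0.087 to 0.365 CPM early and 0.395 to 1.72 CPM late (1.92 ± 0.59, adjusted p = 0.0355), while FABP5 fell, as did the dehydrogenases DHRS4 and RDH11, and RDH14 rose.

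Within neural crest and glia-like cells, the synthase ALDH1A3 was at 0 to 0.832 CPM early and 26.2 to 80.8 CPM late (adjusted p = 8.7e-07). It rose from 3 UMIs to 226, a ratio of the pooled CPM of 133.97-fold, with a 95% exact binomial interval of 45.3 to 655 for counting error only. The synthase ALDH1A1 was at 9.8 to 13.3 CPM early and 1.11 to 3.97 CPM late (-1.95 ± 0.36, adjusted p = 0.00116). Of the response genes tested there, 1 of 7 rose, RARRES2, and 3 fell, among them MEIS1 and MEIS2, where 31.1% of all genes were called. In dermomyotome-like cells 1 of 5 response genes fell and none rose, where 13.3% of all genes were called. FABP5 there was at 150.2 to 363 CPM early and 63.7 to 78.1 CPM late (-1.84 ± 0.30, adjusted p = 0.00093). The co-activator NCOA1 rose in dermomyotome-like cells, with 5.15 to 19.5 CPM early and 36.8 to 41.5 CPM late (1.43 ± 0.32, adjusted p = 0.00923), 1 of 9 receptors and co-regulators to pass against the same 13.3%.

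As a description, each gene was set beside 7323 other genes by Pearson's correlation of log2(CPM + 1) over the 89 sums of a type in a library, which share libraries, depth and gates. The nearest to RXRG were NGFR (0.74), RASSF4 (0.66) and NCALD (0.64), the first being the nerve growth factor receptor gene. For STRA6 they were SIX4 (0.73), SMOC1 (0.72) and FBN3 (0.70), and for CYP1B1 MFAP2 (0.71), MEOX1 (0.67) and SULF1 (0.66), in which MEOX1 is itself a dermomyotome marker of the gates. Among those nearest to ALDH1A2 were DACT2 (0.70) and MEIS2 (0.56), the latter from the retinoic acid list above. DHRS3 lay nearest to CAPG (0.78), DAB2 (0.74) and SEC24D (0.73), and CRABP1 to PIK3C3 (0.65), SPOCK1 (0.63) and SCG3 (0.62). The genes nearest to CRABP2 were FZD7 (0.78), NASP (0.78) and QPRT (0.77), and those nearest to CYP26A1 were SORD (0.53), ATP23 (0.51) and FGFR2 (0.51). Among the genes of the set, STRA6 and CYP1B1 were the most alike pair (0.65), and CYP26A1 and RXRG the least (-0.32).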

How the data were processed

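The 8 libraries were 10x Chromium 3' single-cell libraries. The authors made the deposited counts, whole-number UMI counts per gene and barcode, with Cell Ranger (3.1.0 for E16 and 3.0.2 for the other stages, per the file headers) on Sscrofa11.1 with Ensembl release 98. These counts are neither normalized nor corrected between libraries. Kept barcodes had at least 200 genes, at most 30000 UMIs and at most 10% of their UMIs from 13 mitochondrial genes, the limits of the study. The study's doublet caller was not used, and the barcodes with the highest Scrublet scores (scanpy 1.11.5) were removed at 0.8% per 1000 barcodes, 8247 in all. Genes were taken by symbol, and 112 of 120 gate markers were found.

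Counts were summed per library, and per library and gate, and tested with edgeR 4.0.16 (R 4.3.3) by the quasi-likelihood test with TMM factors, edgeR's expression filter and Benjamini-Hochberg adjustment over all genes tested, at 0.05. Late against early had the breed as a covariate, DZ against ZZ the stage as a block, and each type against other cells the library as a block. A fit within a type needed 3 early and 3 late libraries of 20 cells, and 2 of each in the types added after the values were seen. The difference between types was added in the same way. For shares of cells with a UMI, cells were thinned to 1500 UMIs and shallower cells left out. A count of 0 was read as at most 3 counts. Floors cover counting error only, and standard errors the spread between libraries. Alternatives were DESeq2 1.42.0, other size factors, no filter, no covariate, other cell limits and gates, and leaving out libraries. The older quasi-likelihood fit was chosen after seeing the data. The script was tested on simulated counts. Every gene of the set could be named in every comparison, and of the pathway list those called with an absolute log2 fold change of at least 1, up to 5 per comparison, besides the genes listed by role. The members and lists were chosen with earlier results of these data known. Some genes of the pathway list are not reported here.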

Additional observations from a re-analysis of the deposited data

Results flagged for a closer look

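The change of CRABP1 from early to late embryos differed between dermomyotome-like and neural crest and glia-like cells by 4.94 on the log2 scale, since it rose in the first type and fell in the second. The change of STRA6 differed between the same types by -4.42, since it fell in the first and rose in the second. Both differences passed edgeR's test. The comparison was chosen because these opposite courses had been seen in the same values, so that its passing is no independent support for them. In 16 groups of 4 libraries, the early and the late libraries for each of the 8 genes, no library stood apart from the other 3 by Dixon's test.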

How the results depend on the processing

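Of 104 calls of a gene in a comparison, 55 held in every alternative tried, and 49 were lost in at least 1. No called gene changed direction under any alternative. The size factors of DESeq2, a minimum of 1000 UMIs per cell and dropping the covariate moved no count of called genes by over 1.5 times. With DESeq2's own test the counts became 4 for late against early over whole libraries, 3 for dermomyotome-like, 2 for cardiac muscle-like, 2 for connective tissue-like and 4 for neural progenitor-like cells against the other cells, and 1 and 2 within myoblast-like and cartilage-like cells. Without the filter on low counts, 2 genes were called within endothelial-like and 1 within myoblast-like cells. The older quasi-likelihood fit called 7 in sclerotome-like cells. A mitochondrial limit of 5% called 0 in endothelial-like cells. With no doublets removed, 2 were called within endothelial-like and 3 within cartilage-like cells. Gates of 1 marker fewer gave 4 in cartilage-like cells and, within types, 5 in sclerotome-like, 1 in myoblast-like and 4 in cartilage-like cells, and gates of 1 marker more gave 3 within connective tissue-like and 0 within endothelial-like cells. Without E28, 3 were called in myoblast-like and 2 in connective tissue-like cells, and within types 3 in neuron-like, 0 in endothelial-like, 1 in myoblast-like and 5 in cartilage-like cells. Without E16, 2 were called in epithelial-like and 7 in lateral mesoderm-like cells, and 2 within connective tissue-like cells. The value of CYP1B1 over whole libraries, 0.19 and not called, became -0.0539 without E28 and -0.299 without E16, and with 1 library left out it ran from -0.0582 (without E16-DZ) to 0.511 (without E18-ZZ), being -0.0356 without E28-DZ. The cause was not tested for any of these.

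Leaving out each library in turn gave 2 to 4 genes called over whole libraries late against early and 2 to 3 for the difference between dermomyotome-like and neural crest and glia-like cells. Against the other cells, it gave 5 to 6 in dermomyotome-like, 4 to 6 in sclerotome-like, 4 to 6 in myoblast-like, 6 to 7 in myocyte-like, 1 to 6 in cardiac muscle-like, 6 to 7 in cartilage-like, 1 to 2 in connective tissue-like, 5 to 7 in neural progenitor-like, 5 to 7 in neuron-like, 5 to 7 in endothelial-like, 7 to 8 in erythroid-like, 2 to 4 in epithelial-like, 3 to 4 in lateral mesoderm-like cells. Within types, it gave 3 to 6 in connective tissue-like, 0 to 1 in neuron-like, 1 to 2 in endothelial-like, 0 to 3 in sclerotome-like, 0 to 1 in myoblast-like, 0 to 6 in myocyte-like, 0 to 3 in cartilage-like cells. The other counts did not move.

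The labels give no replicate numbers to pair libraries by, each library being the single one of its stage and breed. The stage was already a block in the breed comparison, and the library in each comparison of a type with the other cells. Some alternatives left too few libraries with 20 cells of a type to fit. In small gates a floor of 3 counts limits what the sums show of CYP26A1 and RXRG.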
